A study of Mus musculus with 16 samples.

Results

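Collagen chain genes were followed across the hearts of 4 mouse groups. They were taken by symbol, as every gene named Col, a type number, the letter a and a chain number. This gave 37 chains among the 14138 genes of the table for wild type and CPT2H-KO hearts, and 44 chains among the 17831 genes of the table for CPT2 single KO and CPT2/USP30 double KO hearts. The symbol pattern also matched Col4a3bp in both tables, which encodes the ceramide transfer protein and no collagen, and which was set apart (log2 fold changes of 0.01 and -0.05, edgeR adjusted p = 0.962 and 0.981). Chains were split into 9 fibrillar chains (types 1, 2, 3, 5 and 11), 8 basement membrane chains (types 4, 15 and 18) and others, 20 in the first table and 27 in the second. The chains Col6a4, Col9a1, Col9a3, Col10a1, Col17a1, Col19a1 and Col24a1 were not analysed in the first table.

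Total RNA from 16 hearts was sequenced after removal of ribosomal RNA, 1 library per heart. The 5 wild type hearts stood against 5 CPT2H-KO hearts, in which carnitine palmitoyltransferase 2, a mitochondrial enzyme of long-chain fatty acid oxidation, was deleted in cardiomyocytes. The 3 CPT2 single KO hearts, whose genotype label is also CPT2H-KO, stood against 3 CPT2/USP30 double KO hearts, in which CPT2 and also USP30, a mitochondrial deubiquitinase that restrains mitophagy, were deleted. All 6 hearts of the second table therefore carried the CPT2 deletion, and that table holds no wild type heart. The labels name Myh6-Cre, a recombinase driven by a heart muscle promoter, with floxed USP30 alleles (USP30 fl/fl), and give a cardiomyocyte-specific deletion of CPT2 without naming its driver. Collagens are made mainly by non-muscle cells of the heart. The sources used here do not give the ages, sexes or litters of the mice, and every p-value therefore rests on the spread among these hearts, part of which may be technical.

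Collagens are mostly secreted proteins whose chains wind into a triple helix. Fibrillar collagens assemble into the fibres that give the heart wall tensile strength, type IV collagen forms the sheet of the basement membrane around each muscle cell and capillary, and further types coat fibrils, link them to membranes or line vessels. In heart muscle, fibroblasts are the main source of fibrillar collagen, endothelial cells and pericytes of much of the basement membrane, and collagen gene transcripts are widely used as a readout of fibrosis.

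Promoter sequence is shown for 3 chains on which the results turn: Col8a1, which had the largest rise of any chain above 1 CPM in wild type hearts; Col8a2, its partner of the same type; and Col3a1, the chain with the highest level per kilobase in the first table. The windows are the 250 bases before the RefSeq transcript start on GRCm38.p6, at chr16:57754738-57754987 on the minus strand, chr4:126286544-126286793 on the plus strand and chr1:45311288-45311537 on the plus strand. Capitals mark the letters CCAAT, known as the CCAAT box, the GC box letters GGGCGG and the TATA box letters TATAAA, or the reverse complement of any of them, searched on both strands with overlapping matches counted.
Col8a1: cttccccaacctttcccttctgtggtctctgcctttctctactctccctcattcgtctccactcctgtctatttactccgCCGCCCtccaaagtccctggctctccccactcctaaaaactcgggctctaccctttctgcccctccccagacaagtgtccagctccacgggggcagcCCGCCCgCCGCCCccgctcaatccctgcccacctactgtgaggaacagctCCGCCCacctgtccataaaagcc
Col8a2: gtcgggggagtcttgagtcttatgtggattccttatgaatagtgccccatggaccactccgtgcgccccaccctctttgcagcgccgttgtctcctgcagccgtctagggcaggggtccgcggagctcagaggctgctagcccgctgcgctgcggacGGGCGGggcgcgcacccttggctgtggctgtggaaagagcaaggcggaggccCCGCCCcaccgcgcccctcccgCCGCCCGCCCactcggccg
Col3a1: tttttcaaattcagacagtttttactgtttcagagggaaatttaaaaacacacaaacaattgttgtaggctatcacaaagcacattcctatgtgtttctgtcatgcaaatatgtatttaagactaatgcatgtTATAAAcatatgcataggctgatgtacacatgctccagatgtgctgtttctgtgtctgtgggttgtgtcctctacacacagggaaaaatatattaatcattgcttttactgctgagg
The Col8a1 and Col8a2 windows each held 4 copies of GGGCGG or its complement and neither of the other motifs, while the Col3a1 window held 1 TATAAA. RefSeq windows were found for 35 of 44 chains, 38 windows in all. GGGCGG was present in 22 of these 38 (57.9%) and in 32.7% of 32851 mouse promoter windows of the same length. CCAAT was present in 34.2% of collagen windows against 33.8% of all, and TATAAA in 13.2% against 12.4%. A match describes the letters only, and these data hold no measurement of factor binding. Several chain genes are neighbours in the GENCODE M21 annotation of GRCm38. Col4a1 (chr8:11198423-11312826, minus strand) and Col4a2 (chr8:11312805-11449287, plus strand) stand head to head, and overlap by 22 bases. Col4a4 and Col4a3 stand head to head on chromosome 1 with 71 bases between them, and Col3a1 and Col5a2 stand tail to tail with 24614 bases between them.

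Libraries of the first table held 54674422 to 132762776 counts, of which mitochondrially encoded genes took 57.9% to 63.0% in wild type and 61.9% to 68.8% in CPT2H-KO hearts (67.7% or more in all but replicate 2), and those of the second 11067969 to 13532716. Levels are given as CPM, the usual counts-per-million scale with library totals adjusted by TMM, and were not compared between tables, whose gene sets differ. Cpt2 was at 53.0 to 89.9 CPM in wild type hearts and 30.4 to 44.9 CPM in CPT2H-KO libraries (log2 fold change -0.95, edgeR adjusted p = 9.71e-04). Usp30 was at 18.5 to 22.8 CPM in single KO hearts and 7.44 to 10.4 CPM in double KO libraries (log2 fold change -1.16, edgeR adjusted p = 0.147). Summed cardiomyocyte markers (Myh6, Actc1, Tnnt2, Tnni3, Myl2 and Ryr2) were at 16050.0 to 21424 CPM in the first table and 65410.3 to 94301 CPM in the second, so heart muscle was present in every library. Libraries differed in atrial transcripts (the sum of Myl7, Myl4 and Sln): 57.1 to 438 CPM in wild type libraries, 45.5, 1.80, 1.16, 2.02 and 353 CPM in CPT2H-KO replicates 1 to 5, 2.93 to 3.58 CPM in single KO, and 9.04, 382 and 1432 CPM in double KO replicates 1 to 3. Y-linked transcripts were above 1 CPM in 4 wild type, 3 CPT2H-KO, 2 single KO and 0 double KO libraries. In the second comparison, sex and genotype are thus nearly tied.

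The first comparison asks how collagen transcripts differed in hearts whose muscle cells lacked CPT2. Collagen chains rose across all classes in CPT2H-KO hearts: 20 of the 36 tested chains were higher at an edgeR adjusted p under 0.05, where 16.7% of all 14123 tested genes were, and 0 were lower, where 17% of all genes were. The rises were spread over 5 of 9 fibrillar, 5 of 8 basement membrane and 10 of 19 tested other chains. The median log2 fold change of the tested chains was 0.91, against -0.01 for all genes, and 29 of 36 chains were above 0, against 49.1% of all genes. For 11 chains every CPT2H-KO library lay above every wild type library, and for 0 the reverse held, where 11.5% and 13.2% of all genes did so. Col6a5, at 0 to 71 counts per library, was left out by the filter on low counts; a library with 0 counts allows a level of up to 3 counts, 0.0193 to 0.0610 CPM in this table.

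**Figure D1:**
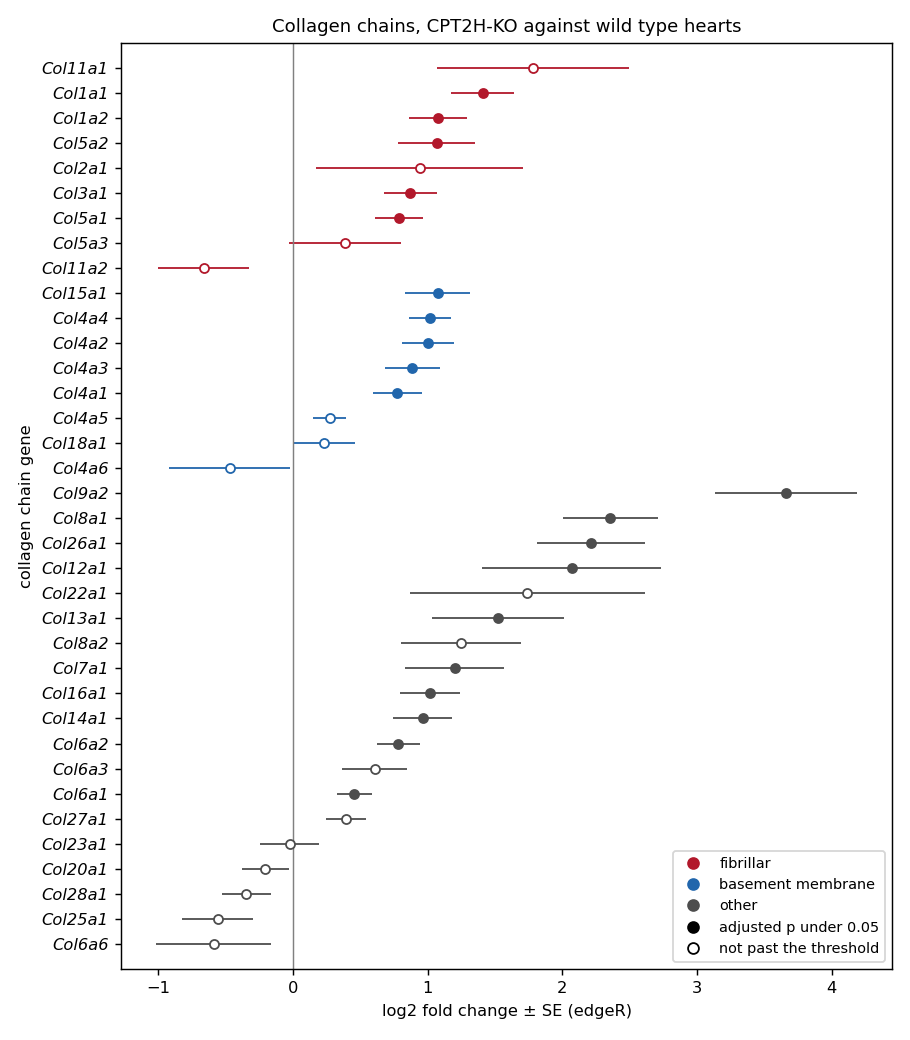
Log2 fold change of each tested collagen chain in CPT2H-KO against wild type hearts (horizontal axis, with its standard error as a bar), with chains ordered within the fibrillar, basement membrane and other classes on the vertical axis. Filled points are the 20 chains past an adjusted p of 0.05, all to the right of 0, from 0.46 for Col6a1 to 3.66 for Col9a2.

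Type I collagen, the stiff fibre of scar and tendon, is built from Col1a1 and Col1a2. Col1a1 (chr11:94936224-94953042) was at 76.3, 66.0, 48.5, 104 and 60.9 CPM in wild type replicates 1 to 5 and at 294, 182, 145, 183 and 141 CPM in CPT2H-KO replicates 1 to 5. The groups did not overlap, and CPT2H-KO replicate 1 stood well above the rest; the log2 fold change was 1.41 ± 0.24 (SE, 5 hearts a group, edgeR adjusted p = 0.00138). Col1a2 (chr6:4504814-4541544) was at 138, 122, 91.6, 166 and 105 CPM in wild type hearts and 385, 305, 176, 236 and 215 CPM in CPT2H-KO hearts. Every CPT2H-KO library was again above every wild type library (log2 fold change 1.08, SE 0.22, edgeR adjusted p = 0.00355). Col3a1 (chr1:45311538-45349706), the chain of the finer type III fibres, was at 345, 292, 237, 494 and 321 CPM in wild type hearts and 712, 750.0, 435, 664 and 529.6 CPM in CPT2H-KO hearts. It rose by 0.87 on the log2 scale (SE 0.20, edgeR adjusted p = 0.00682), with wild type replicate 4 above CPT2H-KO replicate 3. Of the type V chains, which set fibril diameter, Col5a1 was at 54.0, 42.7, 42.5, 76.7 and 55.1 CPM in wild type hearts and 120.3, 94.9, 80.1, 98.3 and 74.2 CPM in CPT2H-KO hearts. Col5a2 was at 47.1, 42.1, 39.9, 61.4 and 51.3 CPM against 184, 121, 58.5, 75.0 and 67.5 CPM. Both overlapped between groups at 1 wild type library, replicate 4, and rose by 0.79 and 1.07 (edgeR adjusted p = 0.00622 and 0.0156).

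The 4 other fibrillar chains did not pass the threshold. Col11a1, a minor fibril chain best known from cartilage, was at 0.319 to 1.12 CPM in wild type hearts and at 6.95 and 3.62 CPM in CPT2H-KO replicates 1 and 2 but 0.325, 0.556 and 1.38 CPM in replicates 3 to 5 (log2 fold change 1.78, edgeR adjusted p = 0.0747). Replicates 3 and 4 lay within the wild type range. Col2a1, the main cartilage chain, stayed under 1 CPM in every library, and Col5a3 ranged from 8.20 to 31.9 CPM in wild type hearts and 11.3 to 35.4 CPM in CPT2H-KO hearts. Col11a2 was at 1.44 to 2.78 CPM in wild type hearts and 0.630 to 2.56 CPM in CPT2H-KO hearts, with a log2 fold change of -0.66 (edgeR adjusted p = 0.154).

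**Figure D2:**
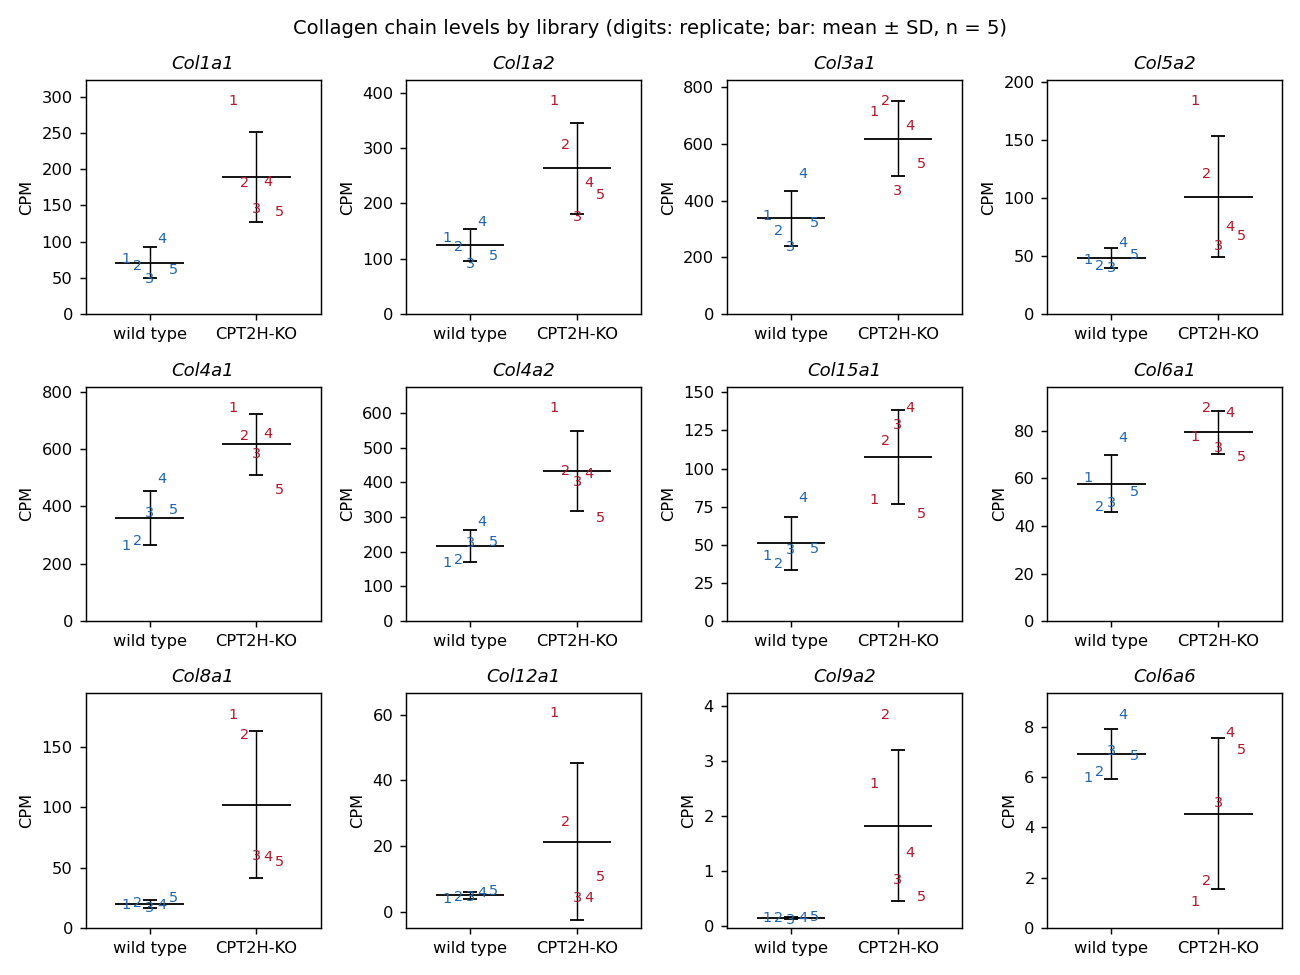
CPM of 12 collagen chains in each wild type (blue) and CPT2H-KO (red) library, with digits for the replicate number and black bars for the mean and SD of 5 libraries. Col1a1, Col1a2, Col4a2, Col8a1 and Col9a2 do not overlap between groups; CPT2H-KO replicates 1 and 2 stand far above replicates 3 to 5 for Col8a1 (177 and 160.2 against 55.1 to 59.6 CPM) and Col12a1, and far below them for Col6a6.

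Among basement membrane chains, 4 of 6 type IV chains and Col15a1 rose. Col4a1 and Col4a2 form the common type IV network. Col4a1 was at 262, 279.8, 379, 494 and 387 CPM in wild type hearts and 744, 645, 584, 654 and 458 CPM in CPT2H-KO hearts, and the groups overlapped between CPT2H-KO replicate 5 and wild type replicate 4 (log2 fold change 0.78, SE 0.18, edgeR adjusted p = 0.00715). Col4a2 was at 168, 177, 224, 285 and 227 CPM against 614, 433, 400.0, 423 and 296 CPM, with no overlap (log2 fold change 1.00, SE 0.19, edgeR adjusted p = 0.00272). The adjacent genes Col4a3 and Col4a4 encode chains of the network best known from the kidney filter and lung. Col4a3 was at 7.03 to 10.6 CPM in wild type hearts and 11.3 to 21.8 CPM in CPT2H-KO hearts, and Col4a4 at 7.51 to 12.2 CPM and 15.8 to 24.3 CPM. Neither overlapped, and both rose (log2 fold changes 0.89 and 1.02, edgeR adjusted p = 0.00745 and 9.02e-04). Their usual partner Col4a5 was at 45.7 to 58.2 CPM in wild type hearts and 55.3 to 85.2 CPM in CPT2H-KO hearts (log2 fold change 0.27, edgeR adjusted p = 0.106). Col4a6 was at 2.36 to 5.34 CPM and 0.997 to 5.81 CPM (log2 fold change -0.47, edgeR adjusted p = 0.444).

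Types XV and XVIII are proteoglycan collagens of the basement membrane zone, and their ends are cleaved to the fragments restin and endostatin. Col15a1 (chr4:47208161-47313167) was at 42.6, 37.3, 46.8, 81.0 and 47.0 CPM in wild type hearts and 79.1, 118, 129, 139.8 and 70.5 CPM in CPT2H-KO hearts. Here replicates 3 and 4 were the highest of the CPT2H-KO libraries, unlike the order for type I, and the rise on the log2 scale was 1.07 (SE 0.24, edgeR adjusted p = 0.00633). Col18a1 was at 6.21 to 14.2 CPM in wild type hearts and 8.75 to 16.6 CPM in CPT2H-KO hearts and was not called (log2 fold change 0.23, edgeR adjusted p = 0.468).

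The largest rises were outside both of those classes. Col9a2, a type IX chain that decorates cartilage fibrils, was at 0.148, 0.155, 0.111, 0.141 and 0.165 CPM in wild type hearts and 2.59, 3.84, 0.834, 1.33 and 0.534 CPM in CPT2H-KO hearts. These levels rest on few counts, 10 to 22 in the wild type libraries and 41 to 232 in those of CPT2H-KO hearts, and the lowest CPT2H-KO level was above the highest wild type level (log2 fold change 3.66, SE 0.53, edgeR adjusted p = 5.79e-04). Col8a1 (chr16:57624258-57754737), a short-chain collagen of vessel walls and subendothelial matrix, was at 18.7, 20.4, 16.3, 19.3 and 25.1 CPM in wild type hearts and 177, 160.2, 59.6, 59.2 and 55.1 CPM in CPT2H-KO hearts. All 5 CPT2H-KO libraries were above the wild type range, and they fell into a high pair and a lower set of 3 (log2 fold change 2.36, SE 0.35, edgeR adjusted p = 7.38e-04). Its partner Col8a2 was at 1.12, 1.32, 1.02, 2.21 and 1.52 CPM against 7.57, 4.39, 1.55, 1.38 and 2.34 CPM. The same pair was high, the other 3 libraries overlapped wild type, and the difference just missed the threshold (log2 fold change 1.25, SE 0.45, edgeR adjusted p = 0.0504).

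Col26a1, a little-studied secreted collagen, was at 0.387, 0.143, 0.139, 0.527 and 0.512 CPM in wild type hearts and 1.76, 2.40, 1.18, 1.37 and 1.18 CPM in CPT2H-KO hearts, with no overlap (log2 fold change 2.21, SE 0.40, edgeR adjusted p = 0.00201). Col12a1, a fibril-associated collagen of tendon and regenerating tissue, was at 3.82, 4.69, 4.56, 5.84 and 6.48 CPM in wild type hearts and 60.4, 27.3, 4.11, 4.31 and 10.5 CPM in CPT2H-KO hearts. Replicates 3 and 4 lay within the wild type range while replicate 1 was the highest of all; the difference on the log2 scale was 2.07 (SE 0.66, edgeR adjusted p = 0.0328). Without CPT2H-KO replicate 1 that value was 1.19 (edgeR adjusted p = 0.0872), and the call was lost in 10 of 20 alternatives. The fibril-associated chains Col14a1 and Col16a1 rose without overlap, Col14a1 being at 33.3 to 64.1 CPM in CPT2H-KO hearts against 16.7 to 30.4 CPM in wild type, and Col16a1 at 9.62 to 22.6 CPM against 5.95 to 8.33 CPM (edgeR adjusted p = 0.00666 and 0.00550). Col7a1, which anchors epithelium to stroma, and Col13a1, a membrane-spanning collagen, were near 1 CPM or below in most libraries and had log2 fold changes of 1.20 and 1.52 (edgeR adjusted p = 0.0272 and 0.0326). For both, CPT2H-KO replicate 1 was the highest library, at 1.88 and 3.30 CPM. Without it, the log2 fold change of Col13a1 was 0.90 (edgeR adjusted p = 0.0679).

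Type VI collagen forms beaded filaments between cells and fibres, and its chains differed in size of change. Col6a1 was at 60.3, 48.1, 49.5, 77.2 and 54.1 CPM in wild type hearts and 77.5, 89.7, 73.0, 87.7 and 68.9 CPM in CPT2H-KO hearts. Col6a2 was at 41.1, 33.4, 36.0, 59.7 and 41.7 CPM against 67.4, 80.7, 73.7, 85.8 and 57.1 CPM. Both overlapped between groups and rose, by 0.46 and 0.78 on the log2 scale (edgeR adjusted p = 0.0211 and 0.00381). Col6a3 was at 59.9, 41.4, 44.3, 80.6 and 60.4 CPM against 45.7, 80.4, 97.5, 119 and 93.5 CPM, so that CPT2H-KO replicate 1 was the lowest of its group and within the wild type range. It was not called with all 10 libraries (log2 fold change 0.61, edgeR adjusted p = 0.0753) and was called without that library (0.77, edgeR adjusted p = 0.0104). Col6a6 was at 5.95 to 8.48 CPM in wild type hearts, at 1.05 and 1.85 CPM in CPT2H-KO replicates 1 and 2, and at 4.98, 7.74 and 7.09 CPM in replicates 3 to 5 (log2 fold change -0.59, edgeR adjusted p = 0.311). The 6 remaining other chains, Col20a1, Col22a1, Col23a1, Col25a1, Col27a1 and Col28a1, were not called, with log2 fold changes from -0.56 for Col25a1 to 1.74 for Col22a1. Col22a1, a chain of tissue junctions such as that of muscle and tendon, was at 4.21 and 1.90 CPM in CPT2H-KO replicates 1 and 2 and at 0.0407 to 0.568 CPM in the other 3 (edgeR adjusted p = 0.145).

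**Figure D3:**
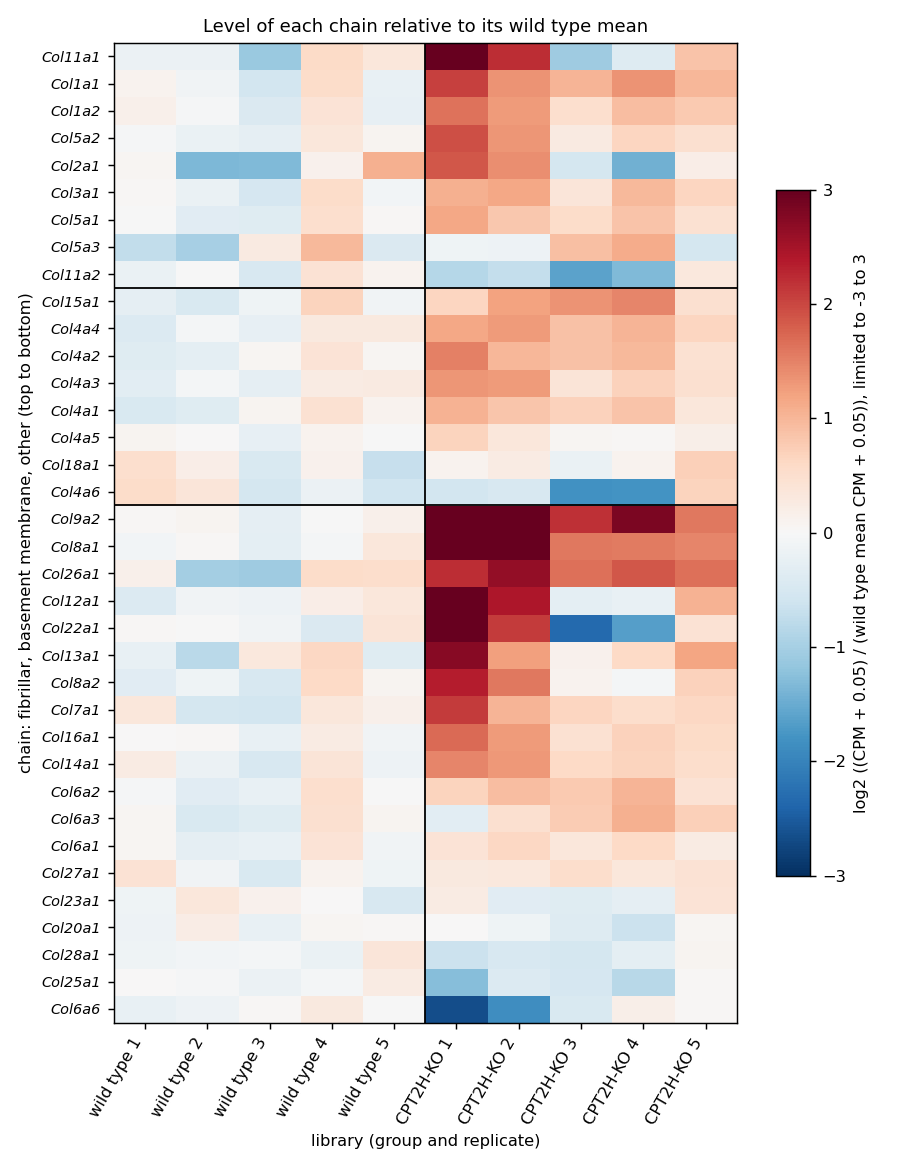
Level of each tested chain (vertical axis, by class) in each library (horizontal axis) as a log2 ratio to its wild type mean, with 0.05 CPM added and colours limited to -3 and 3. CPT2H-KO replicate 1 is the highest library for 18 of 36 chains, and replicates 1 and 2 are dark red for Col11a1, Col8a1, Col12a1 and Col22a1 and blue for Col6a6.

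The CPT2H-KO hearts were not uniform. CPT2H-KO replicate 1 was the highest of all 10 libraries for 13 of the 20 called chains, replicate 2 for 5 and replicate 4 for 2. These counts were not made over all genes and have no background share. Markers of activated fibroblasts (Postn, Cthrc1, Cilp, Tnc, Fap and Meox1) moved with the same libraries: their summed level was 57.3 to 91.4 CPM in wild type hearts, 414 and 426 CPM in CPT2H-KO replicates 1 and 2, and 141, 161 and 156 CPM in replicates 3 to 5, and 4 of the 6 were called higher. Summed fibroblast markers (Pdgfra, Tcf21, Dcn, Lum, Gsn, Mfap5 and Pi16) were at 804 to 1260 CPM in wild type hearts and 799 to 1101 CPM in CPT2H-KO hearts, with 1 of 7 called higher and 1 lower. Endothelial markers were at 293 to 382 CPM and 307 to 397 CPM (0 of 6 higher, 1 lower), pericyte markers at 639.5 to 721 CPM and 476 to 572 CPM (0 of 5 higher, 3 lower), and smooth muscle markers at 163 to 252 CPM and 86.7 to 193 CPM (0 of 5 higher, 1 lower). Over all tested genes 16.7% were called higher and 17% lower, so a count of 1 in lists of this size lies near those shares. Of 5 cartilage markers (Acan, Sox9, Matn1, Comp and Cnmd), 3 were in the first table and 0 were called. Their sum was 4.68 to 8.78 CPM in wild type hearts and 28.5, 12.6, 3.29, 2.32 and 7.73 CPM in CPT2H-KO replicates 1 to 5. In bulk RNA of this kind, fewer or more cells of a type and less or more RNA per cell cannot be told apart. The part of these cell types in the collagen rises was not tested.

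Atrial transcripts also differed between the groups, being near absent in CPT2H-KO replicates 2, 3 and 4. With them as a covariate, 12 chains were called higher, and Col4a1, Col4a3, Col15a1, Col5a2, Col6a1, Col6a2, Col7a1 and Col12a1 were not (edgeR adjusted p = 0.0553 to 0.147). Among these 8, the log2 fold change was 1.17 for Col5a2, 1.46 for Col7a1 and 2.45 for Col12a1, each above its value without the covariate, and 0.38 to 0.77 for the other 5, each below it. None of the 20 called chains changed sign in any of 20 alternatives. With CPT2H-KO replicates 1 and 5 alone, both of which hold atrial transcripts, 19 chains were called higher: Col4a1, Col6a1, Col6a2 and Col15a1 lost their calls (Col15a1 at 0.55), and Col8a2, Col11a1 and Col22a1 gained them. Library totals as the only scaling moved the median of all genes to -0.27 and called 15 chains higher and 3 lower (Col11a2, Col25a1 and Col28a1), with a median of 0.65 over the chains. In all 20 alternatives 10 chains kept their call: Col1a1, Col1a2, Col3a1, Col4a2, Col4a4, Col8a1, Col9a2, Col14a1, Col16a1 and Col26a1. The share of all genes called in each alternative is not given here. A change in calls common to all genes is thus not told apart from one among the chains.

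Levels of different chains were compared per kilobase of exon. In wild type hearts the order was Col3a1 at 60.7, Col4a1 at 54.5, Col4a2 at 33.6, Col1a2 at 23.3, Col6a1 at 14.1 and Col1a1 at 12.0 CPM per kb, followed by Col15a1 (8.45) and Col4a5 (8.23), which lie close together. The sum over all chains was 260.0 ± 56.3 CPM per kb in wild type hearts and 492 ± 103 CPM per kb in CPT2H-KO hearts (SD, n = 5 each), with ranges of 221 to 357 and 380.5 to 630.2 that did not overlap. The class shares of this sum overlapped between the groups. Fibrillar chains took 36.8% to 48.2% of the sum in wild type hearts and 39.3% to 47.5% in CPT2H-KO hearts, and basement membrane chains 35.6% to 49.0% and 36.7% to 45.6%. Within the sum, type VIII chains took 1.20% to 2.06% in wild type hearts and 2.41% to 5.88% in CPT2H-KO hearts, while type VI chains took 9.90% to 11.5% and 5.47% to 9.78%, again without overlap. These shares are descriptions without a test.

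**Figure D4:**
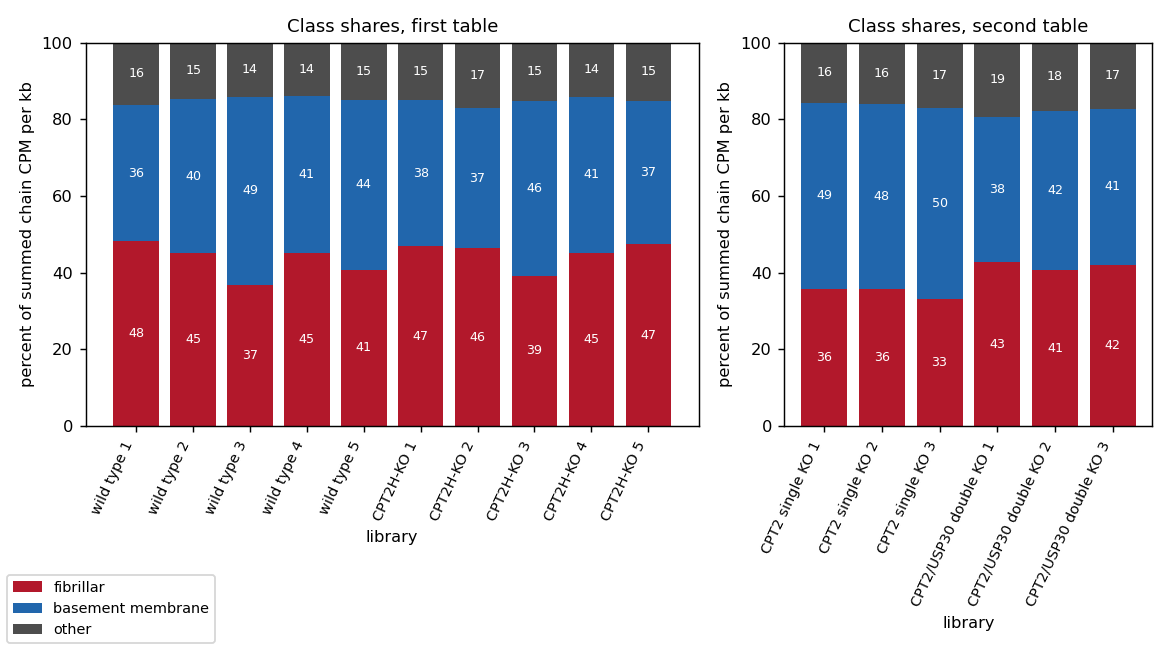
Share of the summed collagen chain level (CPM per kb, vertical axis in percent) taken by fibrillar, basement membrane and other chains in each library of the first table (left) and the second (right). The groups overlap in the first table, while in the second the fibrillar share is 33.3% to 35.8% in single KO hearts and 40.7% to 42.7% in double KO libraries.

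Ratios between chains of 1 molecule or fibril, which do not depend on library scaling, shifted for 5 of 6 pairs in CPT2H-KO hearts. Other gene pairs were not tested, so this count has no background share, and 33.7% of all single genes were called here. The pairs of Col1a1 with Col1a2 and with Col3a1 share a chain and are not separate results. Col1a1 to Col1a2 was 0.477 to 0.565 per kb in wild type hearts and 0.538 to 0.742 in CPT2H-KO hearts, a rise of 0.35 on the log2 scale with overlapping groups (two-sided exact permutation p = 0.0159, 0.0190 adjusted over 6 ratios). Col3a1 to Col1a1 was lower, at 2.58 to 4.40 in CPT2H-KO hearts against 4.72 to 5.62 in wild type, a log2 difference of -0.51. Col4a1 to Col4a2 was lower too, at 1.18 to 1.51 against 1.52 to 1.69 (-0.19), as was Col6a1 to Col6a2, at 1.45 to 1.77 against 1.89 to 2.15 (-0.33). Col8a1 to Col8a2 was higher, at 19.8 to 36.1 against 7.38 to 14.2 (1.16). Each of these 4 pairs was free of overlap between groups and reached the smallest p that the exact permutation test allows for 5 against 5, 0.00794 (0.0119 adjusted). Col5a1 to Col5a2 did not differ beyond its spread (-0.14, exact permutation p = 0.508), and was lowest, at 0.516 and 0.617, in CPT2H-KO replicates 1 and 2.

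Genes that act on collagen after translation were read against the shares of all genes called higher (16.7%) and lower (17%). Of 5 crosslinking oxidases, which join collagen chains covalently, 4 rose and 0 fell, with a median log2 fold change of 1.07. Lox was at 2.89 to 3.61 CPM in wild type hearts and 65.6, 14.4, 4.29, 6.20 and 6.39 CPM in CPT2H-KO replicates 1 to 5 (log2 fold change 2.56, edgeR adjusted p = 0.0157), so that replicate 1 held most of the rise. Loxl1, Loxl4 and Loxl3 rose by 1.06, 1.07 and 1.12 (edgeR adjusted p = 0.00215, 0.0140 and 0.0281). Of 24 procollagen modifying enzymes and chaperones 1 rose, 2 fell and 21 did not pass, with a median of -0.01. The riser was the prolyl hydroxylase gene P3h2 (1.42), and the prolyl hydroxylase gene P4ha1 (-0.34) and the lysyl hydroxylase gene Plod1 (-0.30) fell. Tmem38b, an ion channel gene of the endoplasmic reticulum, had a log2 fold change of 0.53 (edgeR adjusted p = 0.0549).

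Of 17 genes for propeptide removal and fibril assembly, 4 rose and 2 fell (median 0.27). Bgn (1.31), a small proteoglycan, Tnxb (0.40), a tenascin, and Fn1 (1.33), the fibronectin that nucleates fibrils, rose, while the small proteoglycan gene Ogn fell by 0.93. Of 11 collagen receptors 4 rose and 0 fell (median -0.01): Mrc2 (1.02), which takes up collagen fragments, the integrin chains Itga1 (0.50) and Itga11 (1.05), and Adgrg1 (0.58), a receptor of type III collagen. Of 7 degradation genes 2 rose and 1 fell (median 0.52). The protease inhibitor gene Timp1 (1.78) and the membrane protease gene Mmp14 (0.95) rose, Timp4 fell by 0.88, and Mmp2, a gelatinase gene, had a log2 fold change of 0.54 (edgeR adjusted p = 0.0831). Of 15 basement membrane partners 7 rose and 1 fell (median 0.29), with the laminin chains Lamc3 (3.15) and Lama3 (1.15) higher and Lamb2 lower (-0.39). Scaled by library totals alone, 13 genes of these 6 lists were higher and 19 lower, against 22 and 6 under TMM scaling.

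The second comparison asks what the added loss of USP30 changed in collagen transcripts of CPT2-deficient hearts. No chain of 34 tested passed an edgeR adjusted p of 0.05, as was true of all 12997 genes (0% called either way), and DESeq2 and limma-voom called 0 chains too. The lowest adjusted p was 0.468, for Col4a6. At an unadjusted p under 0.05 there were 4 chains higher (Col4a6, Col11a1, Col11a2 and Col23a1), where 4.55% of all genes were, and 3 lower (Col4a1, Col4a2 and Col26a1), where 2.69% were. For 4 tested chains (Col7a1, Col11a2, Col23a1 and Col27a1) the double KO libraries were all above the single KO libraries and for 1, Col4a2, all below, where 6.67% and 5.1% of all genes were. The median log2 fold change of the chains was 0.03, and 18 of 34 were above 0, where 50.4% of all genes were. This median moved with the libraries and terms used: it was 0.44 with the atrial covariate, 0.32 with a sex term, 0.28 without single KO replicate 2, 0.26 without double KO replicate 2, 0.15 without double KO replicate 3, 0.51 with double KO replicate 1 alone, -0.08 without double KO replicate 1 and -0.09 without single KO replicate 3, while that of all genes lay between -0.01 and 0.02. In counts simulated for these libraries, edgeR found 60.3% of genes given a log2 change of 1 and 3.17% of those given 0.5. Small changes were thus mostly missed even in the simulation. In the measured libraries larger ones were missed too: Usp30 (-1.16, edgeR adjusted p = 0.147) and Gsn (1.04, edgeR adjusted p = 0.127) were not called. The simulated shares may therefore overstate what these hearts could show.

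**Figure D5:**
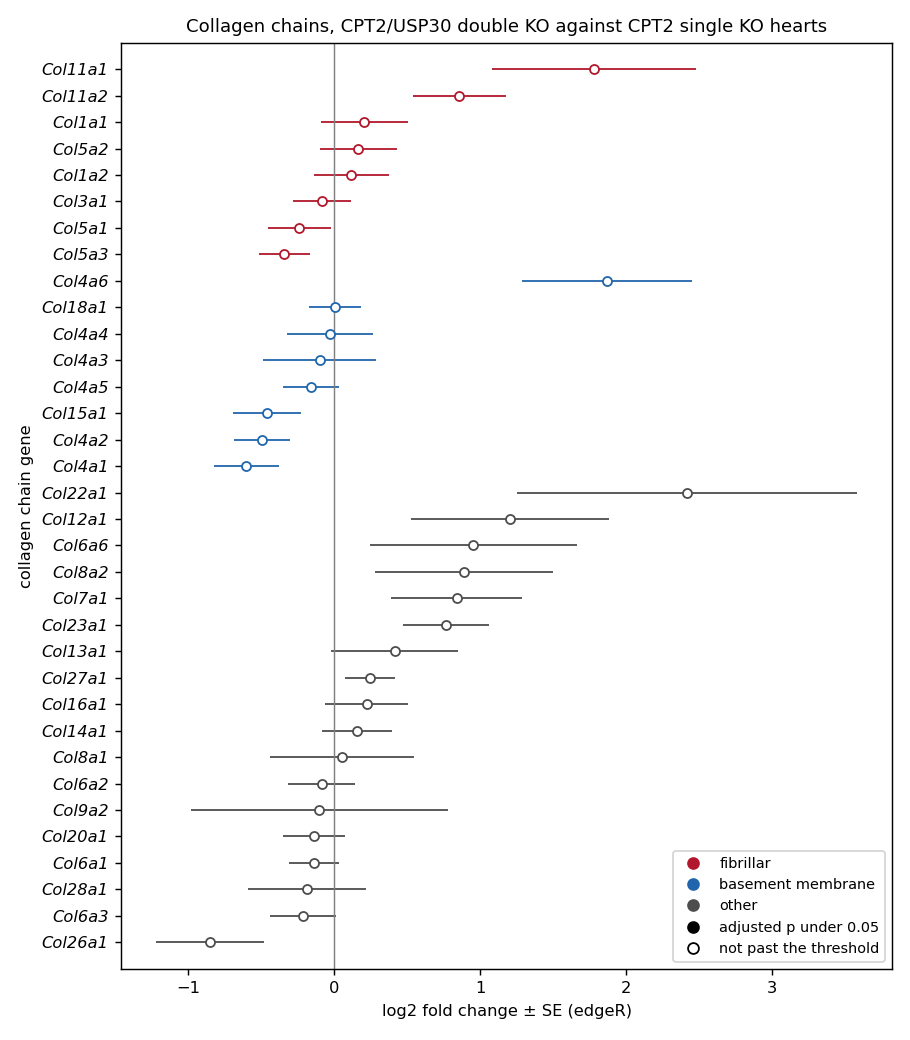
Log2 fold change of each tested collagen chain in CPT2/USP30 double KO against CPT2 single KO hearts (horizontal axis, with its standard error as a bar), with chains ordered within the fibrillar, basement membrane and other classes on the vertical axis. All points are open, since 0 of 34 chains passed an adjusted p of 0.05, and the values run from -0.85 for Col26a1 to 2.42 for Col22a1.

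The main fibrillar chains overlapped between single and double KO hearts. Col1a1 was at 494, 775 and 368 CPM in single KO replicates 1 to 3 and 832, 443 and 617 CPM in double KO replicates 1 to 3 (log2 fold change 0.21 ± 0.30, SE over 3 hearts a group, edgeR adjusted p = 0.934). Col1a2 was at 445, 614 and 365 CPM against 687, 374 and 485 CPM, and Col3a1 at 906, 1097 and 717 CPM against 938, 694 and 936 CPM. All 3 chains overlapped, and the spread within each group exceeded the difference between them. Col5a1 was at 206, 284 and 191 CPM against 234, 144 and 199 CPM, and Col5a2 at 88.8, 131 and 92.9 CPM against 169.5, 84.0 and 97.9 CPM. Col11a2 was at 4.71, 3.37 and 2.01 CPM in single KO hearts and 6.38, 5.13 and 6.87 CPM in double KO hearts, without overlap (log2 fold change 0.86, edgeR adjusted p = 0.563). Col2a1 had 2, 3 and 1 counts in single KO hearts and 18, 9 and 21 counts in double KO libraries and was not tested because of the filter on low counts.

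Of the 8 basement membrane chains, 6 had log2 fold changes under 0, and none was called. Col4a1 was at 1698, 2144 and 1402 CPM in single KO hearts and 1417, 886 and 1154 CPM in double KO libraries (log2 fold change -0.60, SE 0.22, edgeR adjusted p = 0.561). Col4a2 was at 1079, 1506 and 1005 CPM against 944, 751 and 853 CPM (log2 fold change -0.49, SE 0.19, edgeR adjusted p = 0.596). For Col4a2 every double KO library was below every single KO library, and for Col4a1 double KO replicate 1 lay just above single KO replicate 3. With a sex term the log2 fold changes were -0.28 for Col4a1 and -0.24 for Col4a2. Col15a1 was at 393, 582 and 369.9 CPM against 353, 238 and 388 CPM. Col4a6 went the other way, at 1.14, 2.62 and 0.549 CPM in single KO hearts and 2.32, 5.13 and 8.65 CPM in double KO libraries (log2 fold change 1.87, edgeR adjusted p = 0.468), in the same order as the atrial transcripts of the double KO libraries.

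Among the other chains, the libraries of double KO hearts differed widely from each other. Col8a1 was at 80.8, 153 and 127 CPM in single KO replicates 1 to 3 and at 247, 53.6 and 73.6 CPM in double KO replicates 1 to 3, and Col8a2 at 1.95, 5.61 and 1.56 CPM against 10.3, 1.99 and 4.85 CPM. Col12a1 was at 4.31, 13.8 and 7.69 CPM against 42.9, 4.80 and 12.0 CPM, and Col9a2 at 2.28, 11.1 and 3.57 CPM against 13.5, 1.24 and 1.21 CPM. In each of these 4 chains double KO replicate 1 was the highest library, as it was for 16 of 34 tested chains, and single KO replicate 2 was the highest of its group. The count of 16 has no background share, since it was not made over all genes. Activated fibroblast markers, summed, were at 261, 536 and 298 CPM in single KO hearts and 1074, 167 and 235 CPM in double KO replicates 1 to 3. The same libraries were thus at the top of each group. Postn (581 CPM) and Cilp (396 CPM) made up most of the sum in double KO replicate 1, where Meox1 and Cthrc1 were highest too. Among the double KO libraries, Tnc (9.53, 5.29 and 10.1 CPM) and Fap (2.32, 3.64 and 4.12 CPM) were instead highest in replicate 3. In single KO replicates 1 to 3 Tnc was at 14.4, 14.4 and 13.0 CPM, above every double KO library (log2 fold change -0.75, edgeR adjusted p = 0.491). Fap was at 3.58, 3.82 and 4.21 CPM there. The part of these markers was not tested. Of the type VI chains, Col6a1 was at 246, 316 and 229 CPM in single KO hearts and 266, 209.6 and 243 CPM in double KO hearts. Col6a2 was at 289.5, 385 and 230.1 CPM against 345, 217 and 289.8 CPM, and Col6a3 at 155, 167 and 147 CPM against 89.3, 137 and 179 CPM. Each of these chains overlapped between the groups. Col6a6 was at 8.78, 4.11 and 5.31 CPM against 1.08, 16.3 and 17.9 CPM. Without double KO replicate 1 it was the 1 chain called (log2 fold change 1.49, edgeR adjusted p = 0.0428), and both libraries left then carry atrial transcripts at 382 and 1432 CPM.

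Besides Col2a1, the chains Col6a4, Col6a5, Col9a1, Col9a3, Col10a1, Col17a1, Col19a1, Col24a1 and Col25a1 did not pass the filter in the second table. Col10a1, of growth plate cartilage, had 0 counts in all 6 libraries, which allows up to 3 counts, 0.224 to 0.275 CPM, in each.

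The class shares separated in the second table, although no chain was called. Basement membrane chains took 48.6%, 48.4% and 49.6% of the summed CPM per kb in single KO replicates 1 to 3 and 38.0%, 41.6% and 40.5% in double KO replicates 1 to 3. Fibrillar chains took 35.8%, 35.8% and 33.3% against 42.7%, 40.7% and 42.1%. The type IV share alone was 41.1% to 42.4% against 32.5% to 35.8%, and the type I share 14.3% to 17.3% against 19.2% to 23.1%. Neither share overlapped between the groups, and they are given without a test. Shares of a library are parts of 1 sum, so they are not separate results. The fibrillar sum itself overlapped, at 303 to 507 CPM per kb in single KO and 306 to 498 in double KO hearts. That of basement membrane chains was 452 to 685 against 313 to 443 CPM per kb. Over the same libraries, endothelial markers were at 1168 to 1288 CPM in single KO hearts and 878 to 1033 CPM in double KO hearts. Fibroblast markers were at 2049 to 2279 and 3707 to 4616 CPM. Of these markers 0 of 6 and 0 of 7 were called, where 0% of all genes were. Much of the fibroblast sum was Gsn, with a mean of 1311 CPM in single KO hearts and 2691 CPM in double KO hearts. Pdgfra was also higher without overlap, while Tcf21, Pi16 and Mfap5 overlapped between the groups. The remaining members, Dcn and Lum, together held most of the sum outside Gsn. Dcn was higher at an unadjusted edgeR p under 0.05 but was not called. Markers of the heart's outer lining were at 9.13 to 26.5 CPM in single KO hearts and 18.6, 40.5 and 103 CPM in double KO replicates 1 to 3. Adipocyte markers were at 0 to 0.0813 CPM and at 0.166, 4.22 and 89.1 CPM. Of the 4 adipocyte genes, 0 passed the filter on low counts. Their part in the shares was not tested. Y-linked transcripts were under 1 CPM in single KO replicate 3 (0.732 CPM), as in the double KO libraries. Its basement membrane share was the highest and its fibrillar share the lowest of the 6 libraries. With a sex term the log2 fold changes of Col4a1 and Col4a2 were -0.28 and -0.24, against -0.60 and -0.49 without it. The part of sex in the shares was not tested, since sex and genotype are nearly tied here.

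Chain ratios could not pass a threshold with 3 against 3 hearts, where the smallest two-sided exact permutation p is 0.1. Col5a1 to Col5a2 was 1.62 to 1.83 per kb in single KO hearts and 1.09 to 1.61 in double KO hearts, and Col8a1 to Col8a2 was 22.95 to 67.0 and 12.8 to 22.4. Both pairs did not overlap and had that smallest p (0.3 adjusted over 6 ratios). The other 4 ratios overlapped: Col4a1 to Col4a2, for example, was 1.36 to 1.53 against 1.15 to 1.46.

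No gene of the 6 pathway lists was called by edgeR in the second comparison, and over all genes 50.4% were above 0, 4.55% higher and 2.69% lower at an unadjusted p under 0.05. Of 15 basement membrane partners 12 were below 0 (median -0.33) and 5 were lower at an unadjusted p under 0.05, led by the laminin genes Lamb1 (-0.54) and Lama4 (-0.41), the peroxidase gene Pxdn (-0.44), whose product crosslinks type IV collagen, and the nidogen gene Nid1 (-0.38). Of 17 genes for propeptide removal and fibril assembly 15 were above 0 (median 0.25) and 6 were higher at that level, among them Dpt (0.96), Fmod (2.07), Dcn (0.82) and Pcolce2 (0.50), with edgeR adjusted p of 0.210, 0.260, 0.315 and 0.468. Dcn is also on the fibroblast marker list. The receptor list had a median of 0.05, with the integrin gene Itga1 at 81.1 ± 10.9 CPM in single KO hearts and 46.8 ± 4.03 CPM in double KO libraries (log2 fold change -0.79, edgeR adjusted p = 0.187). Medians were -0.04 for procollagen modification, with Serpinh1, the collagen chaperone, at -0.40; 0.22 for crosslinking, with Lox at 0.47; and 0.29 for degradation, with the inhibitor genes Timp1 (1.19), Timp2 (0.54) and Timp3 (0.47).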

How the data were processed

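Per the labels' protocols, RNA was isolated on PureLink columns, ribosomal RNA was depleted and strand-specific libraries were built. The submitters' processing notes name bcl2fastq, the aligner HISAT2, DESeq2 1.42.0 and the build mm10. The sources used here do not name the counting program, its annotation or its strand setting. Values are whole-number counts of reads for each gene, deposited without normalisation in 2 tables; 1 row without a gene name in the second was left out. The first lists no gene with a total under 151 counts, so rarer chains were not analysed there.

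The members and lists were chosen with earlier results of these data known. Each table was tested alone, over all its genes, with edgeR 4.0.16 in R 4.3.3 (filterByExpr, TMM, quasi-likelihood F test, Benjamini-Hochberg threshold 0.05). Standard errors are the log2 fold change over the square root of F. GENCODE M21 (GRCm38, the same build as mm10) gave exon lengths and gene positions. Where exons overlap another gene (at most 3.20% of the exon bases of a chain tested in the first table), counts may be shared. Ratios used CPM per kb with 0.5 counts added. Alternatives were other scalings, no filter, DESeq2, limma-voom 3.58.1, a replicate block, atrial and sex terms and leaving out each library, and, chosen after seeing the data, only the libraries with or without atrial transcripts. Intervals for 0 counts cover counting error only.

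Values in every library were given for the 3 chains of each class with the highest level, ratio partners and the 4 called chains that rose most, and up to 4 genes of smallest p per list were named, except 1 that is not reported here; Col2a1, Col11a1, Col11a2, Col4a6, Col6a6 and Col22a1 were singled out after their values were seen. On simulated counts edgeR found 74.3% of genes given a log2 change of 1 in the first comparison, with 5 unchanged genes called. No libraries of a group were duplicates (chi-square per degree of freedom at least 10.7). Figures were drawn with matplotlib 3.10.9.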

Additional observations from a re-analysis of the deposited data

Results flagged for a closer look

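In 84 groups of 5 libraries tested for a single library far from the rest, 7 were marked, and chance marks about 1 in 20 groups. CPT2H-KO replicate 1 was far above the next library for Col1a1 (294 against 183 CPM), Col7a1 (1.88 against 0.861 CPM) and Col13a1 (3.30 against 1.14 CPM), and its ratio of Col4a1 to Col4a2 was the lowest, at 1.18 against 1.42. Wild type replicate 4 was the highest for Col15a1, at 81.0 against 47.0 CPM, and had the lowest ratio of Col8a1 to Col8a2, at 7.38 against 13.1. Wild type replicate 5 was the highest for Col28a1, at 1.52 against 1.12 CPM. The groups of 3 hearts were too small for this check.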

How the results depend on the processing

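Of the 20 called chains in CPT2H-KO hearts, 10 kept their call in all 20 alternatives and 10 lost it in at least 1, most often Col12a1 (10 of 20) and Col13a1 (8 of 20). The count of chains called higher was 18 with a sex term, 12 with the atrial covariate and 16 to 22 with 1 library left out; that of chains called lower was 3 with library totals only and 0 to 4 with 1 library left out, the 4 being Col4a6, Col11a2, Col25a1 and Col28a1 without CPT2H-KO replicate 5. Pathway genes called higher fell to 13 with library totals and 14 with the atrial covariate, and 19 were lower with library totals. In the second comparison 0 to 1 chains and 0 to 1 pathway genes were called higher with 1 library left out. DESeq2 called 2 pathway genes higher and 1 lower, the atrial covariate 1 higher, and double KO replicate 1 alone against single KO 2 higher. The cause of these differences was not tested, except that library totals shift all genes. Of 34 chains there, 19 changed sign in some alternative. In the first comparison the 6 ratios kept their side of the threshold in the alternatives run; with 3 against 3 hearts no ratio could pass it.

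Samples with the same replicate number deviated together weakly or not at all (correlations of -0.05 to 0.26 in the first comparison and -0.20 to 0.18 in the second). The samples were therefore treated as unpaired, although this check cannot exclude shared litters or batches. With the replicate block 18 chains were called higher in the first comparison, Col12a1 and Col13a1 losing their calls, and 0 in the second. Depth limits chains near or below 1 CPM, whose levels rest on few counts.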
